A study of Mus musculus with 19 samples.

Results

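The 10 genes described here encode the 6 contactins (Cntn1 to Cntn6) and the 4 members of the L1 family (L1cam, Nrcam, Chl1 and Nfasc) in RNA-seq of the mouse retina. They were taken by gene symbol from the 3 comparison tables that the authors deposited, and all 10 were found in each table, of 22294 genes listed in the 48 h table, 23635 in the 14 day table and 35734 in the E17.5 table. All 10 also passed the authors' filter on low counts in each table, so each has an adjusted p-value. The experiments concern Pou3f1, a POU family transcription factor, and the axons of retinal ganglion cells that project to the opposite side of the brain.

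In the overexpression experiment, eyes of wild-type CD1 pups were electroporated in vivo at P1 with plasmid DNA, and fluorescent cells were sorted from the retina. Sorted cells were pooled to reach 150000 for each library. At 48 h after electroporation there were 3 Gfp control and 3 Pou3f1 libraries, and at 14 days 4 Gfp and 5 Pou3f1 libraries. The sample descriptions give 14 days after transfection for the late groups, whereas the protocol text gives postnatal day 14. The labels do not name the promoter of the plasmids, and sorting took the cells that were fluorescent, whatever their type. The knockout experiment used whole retina from the C57B6J strain at stage E17.5 and gave 2 libraries heterozygous for the Pou3F1 knockout and 2 homozygous knockout libraries, so the controls there also carry 1 mutant allele. The stage is that of the sample labels, whereas the name of the deposited comparison gives E14. The labels do not say which libraries came from separate animals or litters, so the p-values measure the spread between these libraries, which may be partly technical.

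Contactins and L1 family proteins are cell surface adhesion molecules built from immunoglobulin and fibronectin type III domains. Contactins are held in the membrane by a lipid anchor and signal through partners in the same membrane, while L1 family proteins cross the membrane and bind ankyrin, which ties them to the spectrin cytoskeleton. In the visual system they act in axon growth, bundling and targeting and in the layering of retinal neurites, and in mature axons they organise the initial segment and the node of Ranvier.

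Each table holds 1 value per gene and comparison and none per library. The sequencing depth of a given library is therefore not known. The overexpression tables give a log2 fold change shrunken toward 0 and its standard error (SE). They also give a mean normalized count over the libraries of both groups. The E17.5 table gives a log2 fold change and p-values only. Whether its fold changes are shrunken too is not stated, so the fold differences at E17.5 may also be too small. Every fold change, SE, mean count, p-value and adjusted p-value printed here is the value in the authors' deposited table of that comparison unless another source is named. The words rose and fell are used of genes for which the authors' adjusted p was under 0.05. In the authors' deposited tables Pou3f1 itself was 0.91 ± 0.26 (log2, SE, adjusted p = 0.0233) at 48 h, 5.57 ± 0.27 (adjusted p = 3.40e-88) at 14 days and -0.69 (adjusted p = 1.98e-08) in the knockout, and the direction of each comparison was read from it. The mean count of Pou3f1 over the libraries of both groups was 37279 at 48 h and 16972 at 14 days. Levels per group are not given, so how far shrinkage lowered the value of 0.91 is not known.

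By the mouse GENCODE release 21 annotation (GRCm38, mm10), 6 of the 10 genes lie in 2 clusters. On chromosome 6, Cntn3 (minus strand, chr6:102162655-102573101), Chl1 (plus, chr6:103510586-103750211), Cntn6 (plus, chr6:104492790-104863406) and Cntn4 (plus, chr6:105677660-106699310) follow each other over 4537 kb. They are separated by gaps of 937, 743 and 814 kb, and no other protein-coding gene is annotated between them. The 23 other annotated genes within that stretch were tested in none of the 3 tables. On chromosome 1, Cntn2 (minus, chr1:132509427-132543256) and Nfasc (minus, chr1:132564690-132741797) lie 21.4 kb apart. The others stand alone, with Cntn5 at chr9:9660891-10904775 (minus), Nrcam at chr12:44328885-44601964 (plus), Cntn1 at chr15:92051165-92341967 (plus) and L1cam at chrX:73853778-73896105 (minus). Cntn2 and L1cam are compact, with spans of 33.8 and 42.3 kb, whereas the other 8 genes span from 177 kb in Nfasc to 1244 kb in Cntn5. L1cam shares exon bases with Arhgap4 on the same strand, whose mean count was 37.9 at 48 h and 71.8 at 14 days in the authors' deposited tables, and Cntn5 shares exon bases with an antisense gene that is not in the overexpression tables.

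RefSeq promoter windows (GRCm38.p6, 250 bases before to 50 bases after an annotated start) were matched for 10 of 10 genes, in 16 windows. Since POU factors are known to bind the octamer, ATGCAAAT, each window was searched on both strands. The octamer was in 0 of the 16 windows, against 1.74% of all 32851 windows, and its shorter form TGCAAAT, which lies within the octamer, was in 0 of 16 against 4.02%. The palindrome ATGCAT was in 2 of the 16 windows, 1 of Nfasc and 1 of Cntn1, against 5.04% of all windows, and TAATTA, a homeodomain core, in 1 window of Cntn4 against 5.29%. A match or its absence in these letters says nothing about binding of Pou3f1. The windows of Nfasc and Cntn1 that hold ATGCAT are shown in part because these are the only matches to it among the 10 genes, with ATGCAT in capitals. They lie at chr1:132707496-132707525 on the minus strand, where the match begins 187 bases before the start, and at chr15:92161213-92161242 on the plus strand, where the first of 2 matches begins 132 bases before the start. The 250 bases before the start of Cntn3 (chr6:102464668-102464917, minus strand) are shown because Cntn3 rose at both times and has the most AT-rich of the 16 windows. They lie within the GENCODE span of Cntn3, which begins further upstream, and overlap no annotated exon. GC made up 27.7% of its 300 bases, at the 0.381 percentile of all windows, whose median was 52.7%. The 250 bases before the first start of Cntn1 (chr15:92050915-92051164, plus strand) are shown because Cntn1 was the member whose response differed with time, and GC made up 55.3% of that window.
Nfasc, around ATGCAT: agttcctccattATGCATggaggggggcgg
Cntn1, most downstream start, around ATGCAT: ttgaagactccaATGCATgaattATGCATg
Cntn3, before the start: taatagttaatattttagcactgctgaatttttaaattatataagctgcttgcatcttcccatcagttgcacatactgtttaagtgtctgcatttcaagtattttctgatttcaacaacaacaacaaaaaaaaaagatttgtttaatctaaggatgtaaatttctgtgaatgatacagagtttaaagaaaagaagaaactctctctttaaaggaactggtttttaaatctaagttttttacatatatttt
Cntn1, before the first start: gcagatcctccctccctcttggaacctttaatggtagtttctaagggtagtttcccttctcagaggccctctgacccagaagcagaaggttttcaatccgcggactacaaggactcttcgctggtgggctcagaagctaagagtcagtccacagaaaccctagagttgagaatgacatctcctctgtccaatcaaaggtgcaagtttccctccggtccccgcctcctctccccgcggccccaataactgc

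In the sorted cells, the genes differed widely in level. Levels between genes are given as mean normalized counts per kb of the longest annotated transcript, computed from the means in the authors' deposited tables. At 48 h Nrcam was the most abundant of the 10 (476 per kb), followed by Cntn1 (281), Cntn6 (113), L1cam (93.7) and Nfasc (81.5). The lower group held Cntn4 (26.3), Cntn2 (24.1), Chl1 (13.7), Cntn3 (12.2) and Cntn5 (4.04). At 14 days the order was Nfasc (1985 per kb), Cntn1 (843), Nrcam (590), Cntn4 (439), Cntn6 (98.4), L1cam (92.5), Cntn5 (72.8), Cntn2 (66.4), Chl1 (50.8) and Cntn3 (12.7). Nfasc, which clusters sodium channels at the initial segment and the node, thus moved from the 75.9 percentile of listed genes by mean count (not per kb) at 48 h to the 99.1 percentile at 14 days. The contactins Cntn4 and Cntn5, known for roles in the targeting and layering of subsets of direction-selective ganglion cells, moved from the 52.1 to the 83.7 and from the 38.8 to the 56.4 percentile.

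As a share of all normalized counts of a table, Nfasc was 10.1 times as high at 14 days as at 48 h, Cntn5 7.49 times and Cntn4 6.94 times. Chl1 (1.55), Cntn1 (1.25) and Cntn2 (1.15) had ratios slightly above 1, and Nrcam (0.515), Cntn3 (0.431), L1cam (0.411) and Cntn6 (0.363) had ratios below 1. The 2 tables were normalized separately and hold no spread per gene between libraries, so these ratios, the order of the levels and which neighbours in it differ were not tested. The order also depends on the transcript length used. Over the median annotated transcript length the level of L1cam at 48 h was 681 per kb in place of 93.7, and that of Nrcam 1884 in place of 476.

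**Figure D1:**
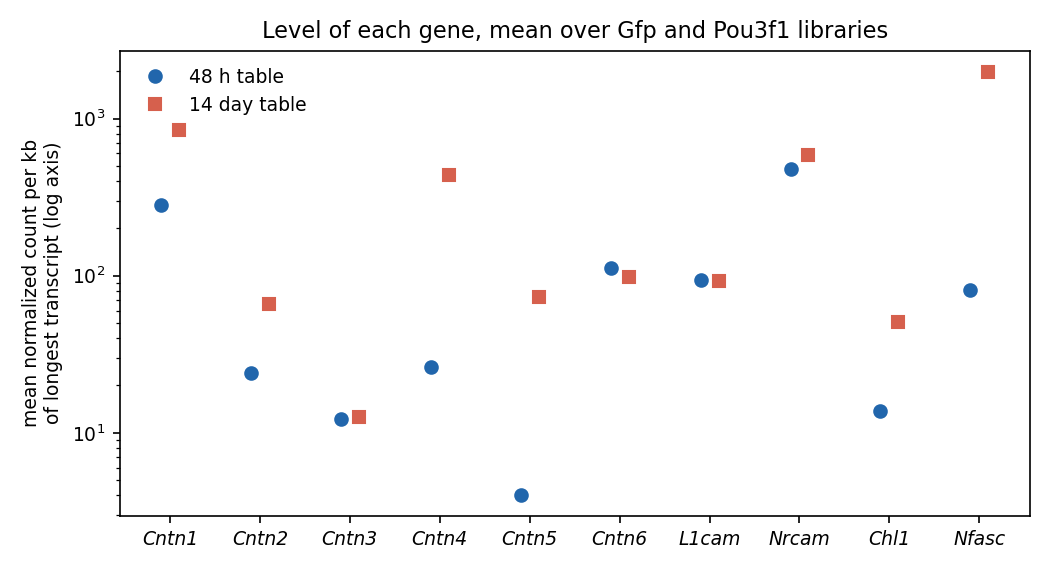
Mean normalized count per kb of the longest transcript (log axis) for each of the 10 genes, as circles for the 48 h table and squares for the 14 day table; each point is 1 mean over Gfp and Pou3f1 libraries, so there are no error bars. In the 48 h and 14 day tables Nfasc is at 81.5 and 1985, Cntn5 at 4.04 and 72.8, and Cntn3 at 12.2 and 12.7. The 2 tables were normalized separately, so these counts are not on the same scale. As a share of all counts of a table, Nfasc was 10.1 times, Cntn5 7.49 times and Cntn3 0.431 times as high at 14 days.

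At 48 h after electroporation, the comparison of Pou3f1 with Gfp cells asked which genes respond early to added Pou3f1. Cntn2 and Cntn3 rose, each 2.10-fold, and 0 of the 10 genes fell. Cntn2 encodes TAG-1, found on growing axons including those of retinal ganglion cells, and Cntn3 encodes the contactin also called BIG-1. Of 14714 genes tested, 3.04% were called in either direction, 1.48% higher and 1.56% lower. Among the 10 genes 2 were called, and the median log2 fold change was -0.02, against -0.01 over all genes tested. At an unadjusted p under 0.05 there were 5 of the 10, against 14.7% of all genes, and of the 5 Cntn1 and Nfasc had negative values.

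Among the contactins at 48 h, the authors' deposited table gives Cntn2 a log2 fold change of 1.07 ± 0.27 (SE, adjusted p = 0.00638) and a mean count of 176. Cntn3 had 1.07 ± 0.29 (adjusted p = 0.0136) at a mean count of 64.7. These 2 genes stood apart from the other 4 contactins, whose values lay between -0.47 and 0.04. Cntn1, a partner of Cntnap1 at the paranode, had -0.46 ± 0.17 (unadjusted p = 0.00521, adjusted p = 0.107). Cntn4 had -0.47 ± 0.29 (adjusted p = 0.485) and Cntn5 -0.16 ± 0.26 (adjusted p = 0.856), the latter at a mean count of only 16.9. Cntn6, a ligand of Notch1, had 0.04 ± 0.19 (adjusted p = 0.964).

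In the L1 family 0 of 4 genes passed at 48 h, and 2 of the 4 had an unadjusted p under 0.05. Chl1, the close homologue of L1, had a value of 0.90 ± 0.30 in the authors' deposited table, not far from those of Cntn2 and Cntn3, with an adjusted p of 0.0650 (unadjusted p = 0.00228). Nfasc had -0.55 ± 0.26 (unadjusted p = 0.0367, adjusted p = 0.291). L1cam, which promotes axon growth and bundling, had -0.02 ± 0.20 (adjusted p = 0.983) with a 95% interval from -0.42 to 0.38. Nrcam, known to act at the optic chiasm in the crossing of ganglion cell axons, had -0.02 ± 0.14 (adjusted p = 0.971) with an interval from -0.30 to 0.25. The intervals here and below are built from shrunken values and their SE. They may therefore be too narrow as bounds on a change that was missed. At an adjusted p under 0.01, Cntn2 was called and Cntn3 was not.

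**Figure D2:**
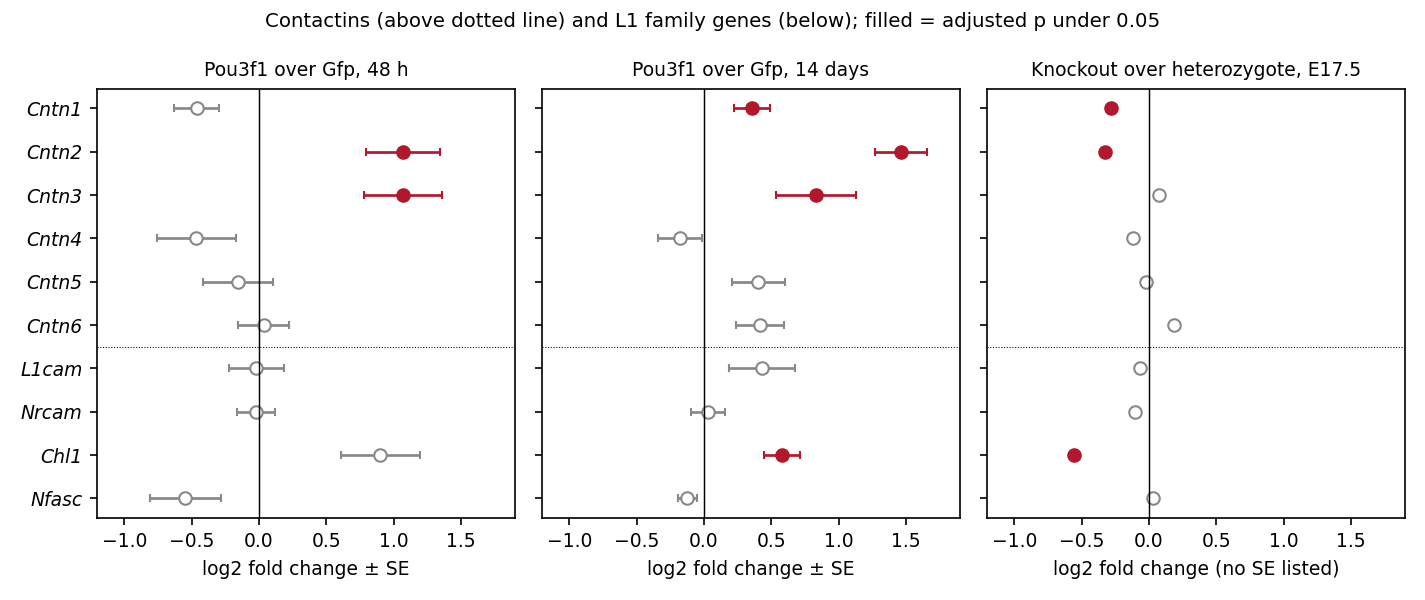
The authors' log2 fold change (x axis) of each gene (rows, contactins above the dotted line and L1 family below) at 48 h, 14 days and E17.5, with bars of ± 1 SE where the table lists one; filled points have an adjusted p under 0.05. Cntn2 and Cntn3 are filled at 48 h, these with Cntn1 and Chl1 at 14 days, and Cntn1, Cntn2 and Chl1 at E17.5, where all 3 are negative.

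At 14 days the comparison asked which genes differed late after the same electroporation. In the Pou3f1 cells Cntn2 was 2.76-fold, Cntn3 1.78-fold, Chl1 1.50-fold and Cntn1 1.28-fold higher than in Gfp cells, and 0 of the 10 genes fell. In this comparison 20.7% of 17789 genes were called, 11.5% higher and 9.21% lower, so a count of 4 of 10 is to be read against a high background. The median of the 10 genes was 0.41 on the log2 scale, against -0.01 over all genes tested, and 8 of the 10 had a positive value against 47.8% of all genes. At an unadjusted p under 0.05 there were 6 of the 10, each with a positive value, against 32.5% of all genes in either direction. The sorted cells are a mixture, and a higher level of a gene may come from more cells of a type that expresses it or from more RNA per cell, which cannot be told apart here.

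Cntn2 had a log2 fold change of 1.47 ± 0.19 (SE, adjusted p = 7.03e-12) in the authors' deposited table and ranked 97 of the 17789 genes by p-value. The next contactin was Cntn3 with 0.83 ± 0.30 (adjusted p = 0.0290), again at a low mean count of 67.0. Cntn1 had a smaller value with a smaller error, 0.36 ± 0.13 (adjusted p = 0.0379), at a mean count of 4783. These 3 genes passed at levels that differ widely. Cntn5 (0.41 ± 0.20, adjusted p = 0.132) and Cntn6 (0.41 ± 0.18, adjusted p = 0.0815) had values of similar size to that of Cntn1 but larger errors, and did not pass. Cntn4 had a negative value, -0.18 ± 0.16 (adjusted p = 0.470).

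Of the L1 family, Chl1 rose at 14 days, by the authors' deposited table with 0.58 ± 0.14 (adjusted p = 0.000427) and a mean count of 384. L1cam had a value of 0.43 ± 0.24 (adjusted p = 0.206), with a 95% interval from -0.05 to 0.91. The 2 L1 family genes that are most abundant at 14 days were measured with small errors. Nrcam had 0.03 ± 0.13 (adjusted p = 0.899), with an interval from -0.21 to 0.28. Nfasc had -0.12 ± 0.07 (adjusted p = 0.221), with an interval from -0.26 to 0.02. The value of Chl1, 0.58, lies above both intervals. At an adjusted p under 0.01 the rises of Cntn2 and Chl1 passed and those of Cntn1 and Cntn3 did not, and with the p-values adjusted over every gene that has one, Cntn1 did not pass (adjusted p = 0.0502).

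**Figure D3:**
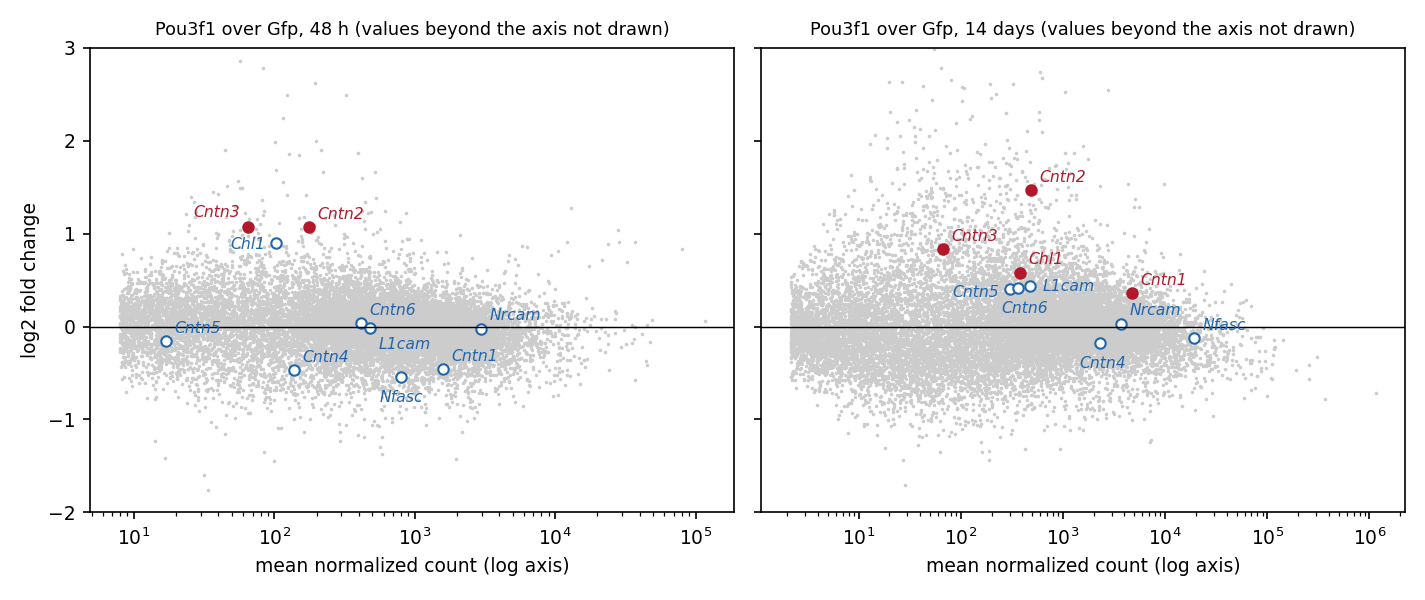
The authors' log2 fold change against mean normalized count (log axis) for all genes tested (grey) and the 10 genes (circles, red and filled where the adjusted p was under 0.05), at 48 h on the left and 14 days on the right. Cntn2 lies above most genes of similar count at both times. Nfasc has a mean count of 794 at 48 h and 19333 at 14 days, in tables normalized separately, with a fold change near 0 at 14 days.

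The 2 overexpression comparisons share no library, so the difference of their fold changes (14 days minus 48 h) was tested gene by gene with a two-sided z test that takes the SE of both, adjusted by Benjamini-Hochberg over 14565 genes. Of all these genes 6.16% differed, and of the 10 genes 1 did, Cntn1. Its value went from -0.46 to 0.36, a difference of 0.82 ± 0.21 (SE, adjusted p = 0.00497) with a 95% interval from 0.40 to 1.24. Pou3f1 itself differed between the comparisons by 4.67 ± 0.38 (adjusted p = 1.21e-31), so the listed contrast in Pou3f1 RNA was not the same at both times. All these differences are of shrunken values. Since Cntn1 was not called at 48 h, what the test shows is that the 14 day value was higher than the 48 h value. For Cntn2 the difference was 0.40 ± 0.33 (adjusted p = 0.564), for Cntn3 -0.24 ± 0.42 (adjusted p = 0.818) and for Chl1 -0.32 ± 0.33 (adjusted p = 0.647). The intervals of these 3 genes reach from -0.26 to 1.05, from -1.05 to 0.57 and from -0.96 to 0.32, and differences within them cannot be told from 0 with these errors. Among the other 6 genes the adjusted p lay between 0.349 (Cntn5, 0.56 ± 0.33) and 0.924 (Nrcam, 0.05 ± 0.19).

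**Figure D4:**
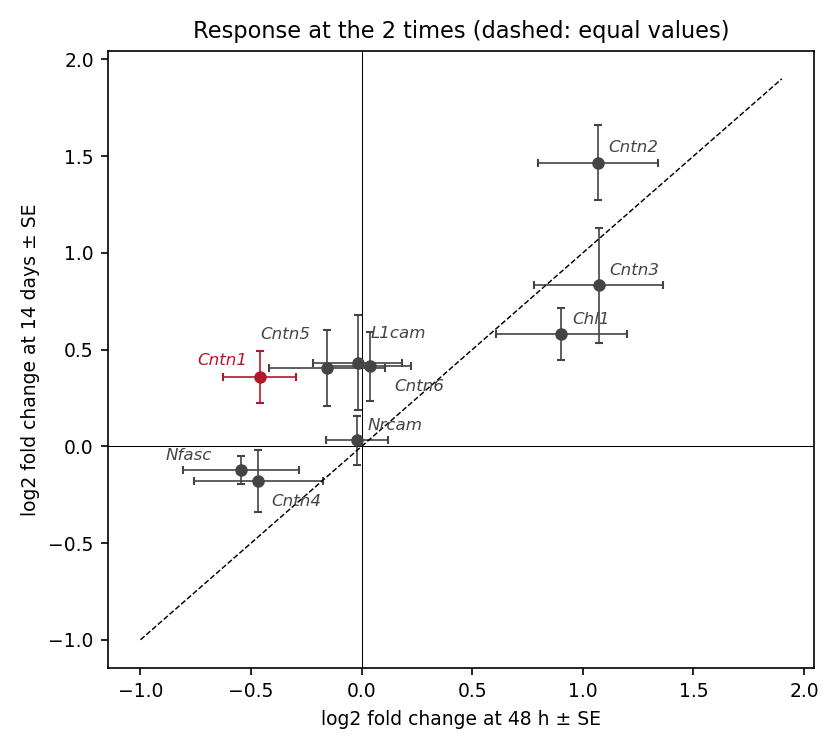
The authors' log2 fold change at 48 h (x axis) against that at 14 days (y axis) for the 10 genes, with bars of ± 1 SE and a dashed line at equal values. Cntn2, Cntn3 and Chl1 sit at the upper right, and Cntn1 (red), at -0.46 and 0.36, is the one gene whose difference between the times passed the test.

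At E17.5 the comparison of homozygous knockout with heterozygous retinas asked which genes differ between these genotypes in the embryo. Chl1 was 1.47-fold, Cntn2 1.25-fold and Cntn1 1.22-fold lower in the knockout, and 0 of the 10 genes rose. Of 14821 genes tested 10% were called, 4.7% higher and 5.34% lower. The median of the 10 genes was -0.09 on the log2 scale, against 0.00 over all genes, and 7 of the 10 had a negative value against 49.2% of all genes. At an unadjusted p under 0.05 there were 3 of the 10, the same 3 that were called, against 21.2% of all genes.

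The log2 fold change of Chl1 was -0.56 (adjusted p = 0.0184) in the authors' deposited table, that of Cntn2 -0.33 (adjusted p = 0.0344) and that of Cntn1 -0.28 (adjusted p = 0.0391). Pou3f1 itself was at -0.69, against controls that carry 1 mutant allele, so that value does not measure its full loss. Cntn3, which rose in both overexpression comparisons, had 0.07 (adjusted p = 0.836), and Cntn6 had 0.19 (adjusted p = 0.364). The remaining 5 genes had values between -0.12 (Cntn4) and 0.03 (Nfasc), with adjusted p between 0.543 (Nrcam) and 0.973 (Cntn5). The table lists no SE, and no interval is given here for those that did not pass. None of the 3 calls held at an adjusted p under 0.01, and with the p-values adjusted over every gene that has one, Chl1 passed (adjusted p = 0.0300) while Cntn2 (0.0561) and Cntn1 (0.0639) did not.

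Seen across the comparisons, 3 of the 10 genes rose at 14 days and fell in the knockout, namely Cntn1, Cntn2 and Chl1, against 1.12% of the 14544 genes tested in both. In sign alone, 7 of the 10 genes were opposite between 14 days and E17.5, against 49.5% of all genes, while between 48 h and E17.5 3 of the 10 were opposite, against 40.8%. Both Cntn2 and Cntn3 rose at 48 h and at 14 days, against 0.542% of 14565 genes. Of 13992 genes tested in all 3 tables, 0.0715% (10 genes, Pou3f1 included) rose at both times and fell in the knockout. Of the contactin and L1 family genes Cntn2 was the one that did. The falls of Cntn1, Cntn2 and Chl1 in the knockout did not hold at an adjusted p under 0.01. Adjusted over every gene with a p-value, those of Cntn2 (adjusted p = 0.0561) and Cntn1 (0.0639) did not pass. The 10 genes were also chosen with earlier results of these data known. The knockout came from whole embryonic retina and the overexpression from sorted postnatal cells of another strain, so the values are of different cells and stages.

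Neighbours on a chromosome were often called apart, although differences between neighbours were not tested. On chromosome 1, Cntn2 rose at both times, while Nfasc, 21.4 kb away, had values of -0.55 at 48 h and -0.12 at 14 days in the authors' deposited tables. The genes on the far side of Cntn2 (Tmem81 and Rbbp5) passed in none of the 3 comparisons. Beyond Nfasc, Lrrn2 rose at 14 days (0.60 ± 0.17, adjusted p = 0.00392) and Mdm4 passed in none. On chromosome 6, Cntn3 and Chl1 at one end of the cluster rose at 14 days, and Cntn6 and Cntn4 at the other end did not pass in any comparison. Before Cntn3, Pdzrn3 rose at 14 days (0.56 ± 0.19, adjusted p = 0.0235) and Ppp4r2 did not pass, and after Cntn4 neither Il5ra nor Trnt1 passed in any comparison.

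**Figure D5:**
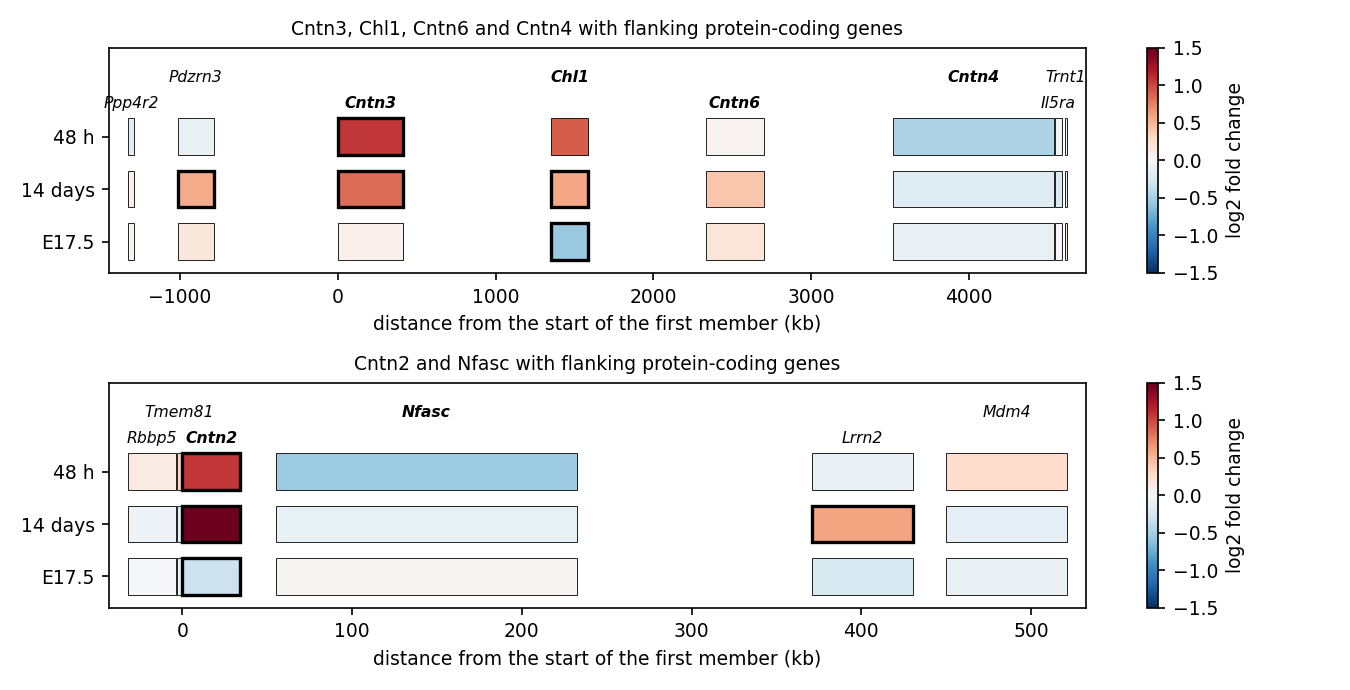
Map of the chromosome 6 cluster (top) and the chromosome 1 pair (bottom) by distance in kb from the start of the first member, with each gene coloured by its log2 fold change in the 3 comparisons and a thick outline where the adjusted p was under 0.05. Red boxes with thick outlines stand at Cntn3 and Cntn2 for 48 h and 14 days, while Nfasc beside Cntn2 and Cntn4 at the far end have none.

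Genes of at least 100 kb, to which 8 of the 10 belong, were called more often than all genes in each comparison. The share was 5.97% at 48 h (2.73% higher, 3.24% lower). It was 29.2% at 14 days (19.7% higher, 9.47% lower) and 13.9% at E17.5 (2.32% higher, 11.6% lower). Of the 8 long members, 1 rose at 48 h, 3 rose at 14 days and 2 fell at E17.5. The median log2 fold change of all long genes was -0.10 at 48 h, 0.05 at 14 days and -0.07 in the knockout. The part of gene length in the results for the 10 genes was not tested. Cntn2, which spans 33.8 kb, is not among the long genes.

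The proteins that work with contactins and L1 family members were followed in 5 lists of 58 genes together. At 48 h 1 of 53 tested rose and 2 fell, at 14 days 13 of 57 rose and 4 fell, and at E17.5 0 of 52 rose and 10 fell. That is 5.66%, 29.8% and 19.2% called, against 3.04%, 20.7% and 10% of all genes. The lists had medians of -0.07, 0.15 and -0.12 on the log2 scale over all 58 genes where tested.

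Contactin-associated proteins (the Caspr family) bind contactins in the same membrane. Of 7 tested at 14 days 2 rose and 1 fell. Cntnap4 had 0.93 ± 0.24 (adjusted p = 0.00170), Cntnap5a 0.66 ± 0.20 (adjusted p = 0.00972) and Cntnap1 -0.46 ± 0.15 (adjusted p = 0.0144) in the authors' deposited table. Cntnap1, the paranodal partner of Cntn1, thus fell while Cntn1 rose. At E17.5 Cntnap5b fell (-0.82, adjusted p = 0.000113), 1 of 5 tested, and at 48 h 0 of 4 passed, with 1 at an unadjusted p under 0.05. Cntnap2, the partner of Cntn2 at the juxtaparanode, passed in none of the comparisons, with -0.17 ± 0.25 at 48 h, 0.19 ± 0.16 at 14 days and 0.23 in the knockout.

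Extracellular partners and co-receptors include matrix proteins, receptor phosphatases and other adhesion molecules. At 48 h 0 of 18 rose and 2 fell. These were Tnr, the matrix protein tenascin-R, which binds Cntn1 (-1.14 ± 0.26, adjusted p = 0.00173), and the receptor Notch1 (-0.53 ± 0.15, adjusted p = 0.0191) in the authors' deposited table. At 14 days 4 of 18 rose and 0 fell, with 6 at an unadjusted p under 0.05 in either direction. They were neurocan (Ncan, 1.09 ± 0.17, adjusted p = 1.02e-08), the adhesion molecule Ncam2 (1.10 ± 0.26, adjusted p = 0.000378), the semaphorin receptor Nrp1 (0.82 ± 0.24, adjusted p = 0.00578) and the receptor phosphatase Ptprz1 (0.51 ± 0.17, adjusted p = 0.0181). At E17.5 6 of 17 fell and 0 rose. Of these Ncan had -0.68 (adjusted p = 1.38e-07), Tnr -0.51 (adjusted p = 7.95e-05), Ptprz1 -0.33 (adjusted p = 0.00108) and Aplp1, a relative of the amyloid precursor protein, -0.32 (adjusted p = 0.0166). Ncan and Ptprz1, like Cntn1, Cntn2 and Chl1, rose at 14 days and fell in the knockout.

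The intracellular adaptors, ankyrins, spectrins and kinases that bind L1 family tails or signal below them had 6 of 17 genes higher and 1 lower at 14 days. Dcx, the microtubule protein doublecortin, had 1.44 ± 0.25 (adjusted p = 9.69e-07), the kinase Src 0.84 ± 0.15 (adjusted p = 1.88e-06) and the kinase Fyn 0.47 ± 0.14 (adjusted p = 0.00625) in the authors' deposited table. Of the same 17 genes 0 passed at 48 h, with 4 at an unadjusted p under 0.05, and 0 at E17.5, with 3. Among channels of the initial segment and node, Scn1a rose at 48 h (1.04 ± 0.28, adjusted p = 0.0144), 1 of 10. At 14 days 1 of 11 rose, Scn3a (0.69 ± 0.19, adjusted p = 0.00395), and 2 fell, Kcnab2 (-0.75 ± 0.12, adjusted p = 2.87e-08) and Scn8a (-0.34 ± 0.11, adjusted p = 0.0174). At E17.5 3 of 9 fell, among them the potassium channel genes Kcnq3 (-0.75, adjusted p = 3.24e-05) and Kcna2 (-0.42, adjusted p = 0.00311). Of 4 proteases that shed L1 family proteins from the membrane, 0 passed in each comparison, with 0 at 48 h, 1 at 14 days and 1 in the knockout at an unadjusted p under 0.05.

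Markers of retinal cell types moved with the same comparisons, and the tables give no levels per group from which a summed level could be set beside them. At 48 h 2 of 9 rod, 4 of 6 cone and 5 of 8 bipolar markers were listed, and at 14 days all of them were. At 48 h the called markers were Npy, which some amacrine cells express, higher (0.94 ± 0.19, adjusted p = 0.000242) and Kdr, of the blood vessel list, lower (-0.63 ± 0.15, adjusted p = 0.00298). Kdr had a mean count of 11683, of 12011 summed over the 5 vessel markers, and the other 4 did not pass. Whether its fall concerns vessel cells was not tested. Of 13 ganglion cell markers 0 passed at 48 h, with 1 at an unadjusted p under 0.05. At 14 days, beside the rises of Cntn1, Cntn2, Cntn3 and Chl1, 7 of 9 rod markers, 5 of 6 cone markers and 4 of 8 Müller glia markers fell, and 5 of 5 microglia markers rose, with a median of 1.66. Ganglion cell markers were mixed. Pou4f2 (3.64 ± 0.26, adjusted p = 7.86e-40), Gap43 (0.99 ± 0.21, adjusted p = 6.93e-05) and Isl1 (0.46 ± 0.18, adjusted p = 0.0491) rose, Nefh fell (-0.36 ± 0.13, adjusted p = 0.0345) and the other 9 did not pass. Of 9 amacrine markers 2 rose, Gad2 (1.21 ± 0.23, adjusted p = 9.35e-06) and Gad1 (0.82 ± 0.26, adjusted p = 0.0123). Of the other lists at 14 days, 1 of 8 bipolar and 2 of 6 oligodendrocyte markers rose. Of the latter, Olig2 had a mean count of only 8.67. In the lists for horizontal cells, astrocytes and blood vessels, 0 of 5, 0 of 3 and 0 of 5 markers passed, with 1, 0 and 3 at an unadjusted p under 0.05.

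At E17.5, beside the falls of Cntn1, Cntn2 and Chl1, 7 of 7 tested amacrine markers fell, with a median of -1.01. Tfap2a had -1.18 (adjusted p = 3.03e-33) and Gad1 -1.36 (adjusted p = 8.76e-13) in the authors' deposited table. Of 13 ganglion cell markers Pou4f2 rose (0.35, adjusted p = 0.00321), Pou4f3 fell (-0.59, adjusted p = 0.00554) and 11 did not pass. In horizontal cell markers 2 of 5 fell, in those of blood vessels 2 of 5, in those of Müller glia 2 of 8 with 1 higher, and 1 fell of 4 bipolar, of 3 astrocyte and of 4 oligodendrocyte markers. Of 3 rod, 4 cone and 5 microglia markers 0 passed, with 1 of each list at an unadjusted p under 0.05. The part of these cell types in the values of the 10 genes was not tested.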

How the data were processed

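Per the submitters' processing notes, the authors used Salmon, DESeq2 and MACS2 with the mm10 build. Not given in the sources used here were tool versions, the annotation, the model and which libraries entered it. Deposited log2 fold changes, SE and p-values from the authors (Benjamini-Hochberg adjusted over genes above an abundance limit) were used as they stand. Per the file headers, the signal column (overexpression only) is the authors' mean normalized count. The score column is, per the file headers, the Wald statistic; recomputed from fold change and SE, the deposited score differed by at most 4.45e-07, and recomputed adjusted p-values by at most 5.60e-06. For E17.5, negative values were taken to mean lower in the knockout, since Pou3f1 is negative; the table's name lists the heterozygote first and an embryonic day that differs from the labels.

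Computed here were the z test between times, counts over lists, levels per kb and percentiles. The z test was run on simulated fold changes drawn with the deposited SE and without shrinkage. That run cannot show how the test behaves on shrunken values. Mean normalized counts summed to 16020800 at 48 h and 38507500 at 14 days, and the median SE was 0.199 and 0.150. Without values per library, no normalization, outlier or replicate check could be made. Named genes are all 10 and Pou3f1, and of each partner or marker list up to 4 called genes per comparison by adjusted p; some genes that this rule names are left out, and flanking genes, Cntnap2 and Arhgap4 were named after their values were seen. The 10 genes, the lists and the tests were chosen with earlier results of these data known. Alternatives tried were a mean count of at least 10, an adjusted p under 0.01, adjustment over every gene, a 2-fold limit, fold changes relative to the median, genes of at least 100 kb, and median transcript length. Gene identifiers were found in the annotation for 99.6%, 99.6% and 99.2% of those listed at 48 h, 14 days and E17.5. The software was Python 3.11.15, scipy 1.17.1, numpy 2.4.6, matplotlib 3.10.9 and pandas 2.3.3.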

Additional observations from a re-analysis of the deposited data

Results flagged for a closer look

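The response of Cntn1 to added Pou3f1 differed between 48 h and 14 days by 0.82 ± 0.21 (log2, SE, two-sided z test, adjusted p = 0.00497), from -0.46 to 0.36. The difference in Pou3f1 itself between the 2 comparisons was 4.67 ± 0.38 (same test, adjusted p = 1.21e-31), so the listed contrast in Pou3f1 RNA, of shrunken values, was not the same at the 2 times. Cntn1 was the one gene of the 10 whose difference between the times passed the test, against 6.16% of the 14565 genes tested. A count of 1 of 10 is thus near the share over all genes. With fold changes relative to the median of all genes the adjusted p was 0.00424, and over genes with a mean count of at least 10 it was 0.00492.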

How the results depend on the processing

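At an adjusted p under 0.01, 230 genes were called in the 48 h, 2066 in the 14 day and 874 in the E17.5 comparison, and of the 10 genes 1, 2 and 0 passed. With a 2-fold limit beside the threshold of 0.05, 106, 496 and 57 genes were called, with 2, 1 and 0 of the 10. With p-values adjusted over every gene that has one, 371 of 22294, 3327 of 23585 and 1274 of 24602 genes were called, with 2, 3 and 1 of the 10. Among genes of at least 100 kb, 5.97% were called at 48 h. These settings change only the call, since the fold changes stay those of the authors' deposited tables, so they bear on no direction. With fold changes relative to the median of all genes tested, and with a mean count of at least 10 (overexpression only), each of the 10 kept its side of the threshold. For E17.5 the setting relative to the median used an SE worked out from the listed fold change and p-value. No paired analysis was possible because the tables hold no values per library, and leaving out replicates was not run for the same reason. The E17.5 table lists no SE, and how large a missed change could be was not worked out there.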
